A study of Rattus norvegicus with 12 samples.

Results

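The miR-29 family was examined in rat liver after dosing with caffeine, dextromethorphan or both drugs. Its members were taken by name, as the rows of the deposited table with the microRNA number 29, and 2 of the 444 rows qualified, Mir29b1 and Mir29b-3. Both encode the same mature microRNA and share its reads, so they count as 1 signal, called miR-29b here. The animals were Sprague-Dawley rats, an outbred stock, all male and 7 weeks old when dosing by mouth began, and dosing ran for 5 days. The Control group received the vehicle, sterile distilled water, and the CAF group received caffeine at 120 mg/kg. The DEX group received dextromethorphan hydrobromide monohydrate at 100 mg/kg, and the CAF+DEX group received both drugs at these doses. Liver was taken 1 h after the last dose from groups of 5 rats, and 3 small RNA libraries per group, 12 in all, were analysed. Caffeine blocks adenosine receptors, and dextromethorphan is a cough suppressant that acts on glutamate and sigma receptors. Nothing in the labels ties a library to a rat, so any p here reflects only how much these samples scatter, which may be technical. The rows were found by name, but the family was chosen by measured values, the unadjusted p of both copies against Control in earlier results of these data. The comparisons with Control are therefore given as description. Whether a copy passed the test over all features is stated for them, with no p, and nothing is read from it.

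MicroRNAs are short RNAs that guide Argonaute proteins to messenger RNAs, and bases 2 to 8 of the mature strand, the seed, do most of the target pairing. The miR-29 family is best known for pairing with messenger RNAs of matrix proteins (collagens, elastin, fibrillins) and of DNA methyltransferases. In liver it is made by hepatocytes and by stellate cells, the main matrix producers, and it is known to fall when stellate cells become activated. The table held 432 microRNA rows among its 444 and 0 rows of collagen genes, so no target transcript was measured.

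The mature sequences are shown because the shared 3p strand is why the copies cannot be separated. They come from RefSeq on build GRCr8, where the genes lie at other positions than on rn7, the build of the deposited table. Mir29b1 matched by symbol. No RefSeq gene has the name Mir29b-3. RefSeq lists 1 miR-29b gene on chromosome 13, Mir29b2, which lies beside Mir3556b as Mir29b-3 does in the table, and its sequences are given under the RefSeq name. Capitals mark the seed.
miR-29b-3p, from both genes: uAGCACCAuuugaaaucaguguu
miR-29b-1-5p, from Mir29b1: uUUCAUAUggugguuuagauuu
miR-29b-5p, from Mir29b2: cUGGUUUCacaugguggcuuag
miR-29a-3p, for comparison: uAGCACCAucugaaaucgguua
miR-29c-3p, for comparison: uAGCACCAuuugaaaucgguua

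The seed AGCACCA was held by 4 of the 724 RefSeq mature rat entries (0.552%), which come from the 4 genes Mir29a, Mir29b1, Mir29b2 and Mir29c. The reverse complement UGGUGCU is the base run that this seed pairs with in a target. Counted from 1 at the 5′ end of miR-29b-3p, miR-29c-3p differs from it at A18G, G21U and U22A, and miR-29a-3p differs at U10C as well. Mir29a and Mir29c were not analysed here. The 5p strands of the 2 copies have different seeds, UUCAUAU and UGGUUUC, each held by 1 RefSeq entry.

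The hairpins from which the strands are cut are shown because reads outside the common strand can tell the copies apart. Capitals mark miR-29b-3p. On GRCr8 the Mir29b1 hairpin lies on chromosome 4, 60618334 to 60618414, minus strand. The Mir29b2 hairpin lies on chromosome 13, 109098831 to 109098911, plus strand.
Mir29b1 hairpin: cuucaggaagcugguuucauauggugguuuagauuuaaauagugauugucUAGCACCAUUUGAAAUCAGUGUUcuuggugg
Mir29b2 hairpin: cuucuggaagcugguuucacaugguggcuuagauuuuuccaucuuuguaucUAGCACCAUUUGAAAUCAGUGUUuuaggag

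Aligned end to end, the hairpins were identical in 67 of 83 columns (80.7%), and their longest common run was 25 bases, the mature 3p strand with the 2 bases before it. In the deposited table Mir29b1 (ENSRNOG00000035463) lies on rn7 chromosome 4, 59650986 to 59651067, minus strand, with a length of 82 bases. Mir29b-3 (ENSRNOG00000035637) lies on rn7 chromosome 13, 106570367 to 106570456, plus strand, with a length of 90 bases. Exon, intron and UTR positions in host transcripts were not analysed here. The annotation deposited in the table gave Mir29b1 46 gene ontology terms and Mir29b-3 42, and all 42 were shared. These include negative regulation of collagen biosynthetic process, held by 3 rows of the table, and regulation of DNA methylation, held by these 2 rows only.

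Depth was 2863572 to 3418568 reads per library, recovered from the deposited values (FPKM, reads per kilobase of feature for every 1000000 reads on the listed features). The labelled tissue was checked with 7 rows of hepatocyte markers, which summed to 262191 to 292469 RPM (reads for every 1000000 on the listed features) over the 12 libraries, with 274230 to 292469 in Control, a range from 263804 up to 273307 in DEX, and overlap with Control in the groups given caffeine. miR-29b had 7111 to 9428 reads per library over both copies, 0.222 to 0.281% of reads. The 95% Wilson binomial interval of this sum had a half-width of 2.02 to 2.32% of its value in a single library, and these intervals cover counting error only, since reads need not be independent molecules. By FPKM, Mir29b1 ranked 63 to 70 and Mir29b-3 ranked 64 to 71 of the 444 rows.

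miR-29b was lowest in Control and higher in all 3 drug groups. Mir29b1 stood at 13215, 13595 and 14163 FPKM in Control libraries 1, 3 and 4, at 15609, 15711 and 15945 FPKM in CAF libraries 1, 2 and 5, at 15260, 16127 and 15617 FPKM in DEX libraries 1, 2 and 4, and at 15678, 16212 and 16626 FPKM in CAF+DEX libraries 1, 2 and 5. Mir29b-3 stood at 12591, 12996 and 13572 FPKM in the same Control libraries, at 15126, 15087 and 15622 in CAF, at 14578, 15443 and 15005 in DEX and at 15017, 15625 and 16027 in CAF+DEX. Each drug library lay above each Control library in both copies, and the 3 drug groups overlapped one another.

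With the reads of both copies summed, the level was 2295 ± 83.4 RPM (SD, n = 3) in Control, 2667 ± 40.4 in CAF, 2636 ± 74.6 in DEX and 2726 ± 84.7 in CAF+DEX. The highest Control library had 2383 RPM and the lowest drug library, DEX library 1, had 2563. The Wilson intervals of those 2 libraries, 2329 to 2438 and 2506 to 2622 RPM, did not meet. These intervals cover counting error and not the spread between libraries, and nothing is read from their gap. The group order was Control, DEX, CAF and CAF+DEX, and within the drug groups neighbours in that order overlapped.

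**Figure D1:**
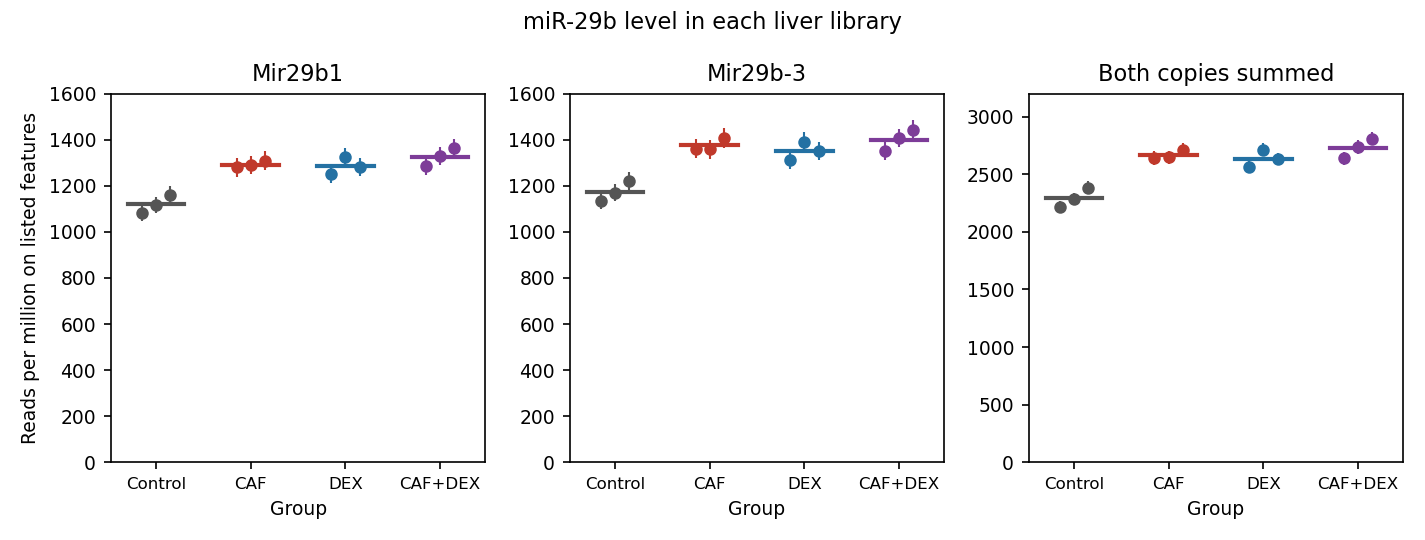
RPM, reads for every 1000000 on the listed features, (vertical axis, from 0) for Mir29b1, Mir29b-3 and their sum in each of the 12 libraries, by group. Points are libraries with 95% Wilson intervals and lines are group means; the sum runs from 2217 to 2383 in Control and from 2563 to 2806 in the drug groups.

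Against Control, the summed level was 16.2% higher in CAF, 14.9% higher in DEX and 18.8% higher in CAF+DEX. On the log2(FPKM + 3.80) scale Mir29b1 differed from Control by 0.21 (SE 0.05) in CAF, 0.20 (SE 0.05) in DEX and 0.24 (SE 0.05) in CAF+DEX. Mir29b-3 differed by 0.23 (SE 0.06), 0.20 (SE 0.06) and 0.25 (SE 0.06). These 3 differences share the Control libraries and are not independent of one another. The median difference of the 293 features tested was 0.00 in CAF, 0.00 in DEX and -0.01 in CAF+DEX. Between 35 and 58 of the 293 features lay further above Control than a miR-29b copy in these comparisons. Falls below Control were not counted, and the 293 include rows of few reads.

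Neither copy passed a limma Benjamini-Hochberg adjusted p of 0.05 over the 293 features in any comparison with Control. The shares of features called were 0.683% in CAF, 0% in DEX and 0% in CAF+DEX. The unadjusted limma p was under 0.05 for 2 of 2 copies in each, which is how the family came to be picked. Among the 293 features it was under 0.05 for 38 in CAF, 13 in DEX and 30 in CAF+DEX. On recovered reads limma-voom called 0 copies in each, beside 2, 0 and 0 of all features. Every CAF library lay above every Control library in 6.48% of features, every DEX library in 6.83% and every CAF+DEX library in 7.17%, and both copies were among them each time; nothing is read from these counts. With quantile normalization, which forces all libraries to 1 distribution, the differences between DEX and Control were 0.10 for Mir29b1 and 0.08 for Mir29b-3. It was the 1 alternative in which a copy passed, Mir29b-3 in CAF against Control at 0.23, and nothing is read from that.

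Bulk liver cannot tell a change in the number of cells of a type from a change in RNA per cell. The 6 leukocyte marker rows, none at 0, summed to 26340 to 29862 RPM in Control and 17456 to 21498 in CAF. Their sum was 25879 to 29663 in the DEX libraries and 19580 to 24029 in those of CAF+DEX. They were thus below the Control range in CAF and CAF+DEX and overlapped it in DEX, where miR-29b was above its own Control range. In CAF 2 of the 6 passed limma's adjusted p as lower, Mir142 and Mir146a, beside 0.683% of all features in either direction. In DEX and CAF+DEX 0 passed against Control, beside 0% of all features in each. Both calls in CAF were lost with no filter on low values, in a fit of only the groups compared, and whenever 1 of 4 libraries was left out (1 or 3 of Control, 2 or 5 of CAF). Leaving out DEX library 2 left 1 call. The 5 stellate and mesenchymal marker rows, none at 0, summed to 24018 to 27071 RPM in Control. The CAF libraries had 21125 to 29126, the DEX libraries 26322 to 27319 and the CAF+DEX libraries 22971 to 31691, so the sums of all groups overlapped. Row by row, 4 of the 5 were higher than Control in CAF, 5 in DEX and 4 in CAF+DEX. The shares of all features that were higher were 50.85%, 51.19% and 47.78%. Median log2 differences of the 5 rows were 0.21, 0.05 and 0.12, beside 0.00, 0.00 and -0.01 for all features, and 0 passed limma's adjusted p. The 3 red cell rows summed to 1008 to 1215 RPM in Control and to 847 to 940 in CAF+DEX, below Control. The sums in CAF (602 to 1143) and DEX (906 to 1222) overlapped Control. Row by row, 3 of the 3 were lower than Control in CAF, 2 in DEX and 3 in CAF+DEX. Their median log2 differences were -0.53, -0.07 and -0.34, and 0 passed limma's adjusted p. The 3 biliary rows (665 to 1444 RPM over all libraries), the 5 muscle rows (84.6 to 514) and the endothelial Mir126a (2.38 to 7.99) overlapped between Control and every drug group. Of the 5 muscle rows, 4 were lower than Control in CAF, 3 in DEX and 3 in CAF+DEX. Their median log2 differences were -0.83, -0.07 and -0.12, and 0 passed limma's adjusted p. The endothelial list rests on Mir126a alone, at a mean of 15.25 reads, so its overlap says little about endothelial cells. The hepatocyte sum was below its Control range in DEX, as given above. The part of these cell types in the miR-29b level was not tested.

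Between the drug groups, no difference in miR-29b passed a test. These comparisons use no Control library and were tested. CAF+DEX exceeded CAF by 0.04 (SE 0.05, limma adjusted p = 0.988) in Mir29b1 and by 0.03 (SE 0.06, limma adjusted p = 0.988) in Mir29b-3 on the log2 scale. CAF+DEX exceeded DEX by 0.05 in each copy (SE 0.05 and 0.06, limma adjusted p = 0.886 for both). DEX minus CAF was -0.01 (SE 0.05, limma adjusted p = 0.94) in Mir29b1 and -0.03 (SE 0.06, limma adjusted p = 0.871) in Mir29b-3.

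None of these 3 comparisons had an unadjusted p under 0.05 for either copy, and limma-voom called 0 of 2 copies in each. Among the 293 features the unadjusted limma p was under 0.05 for 36 in DEX against CAF. It was under 0.05 for 15 in CAF+DEX against CAF and for 23 in CAF+DEX against DEX. Of all features limma-voom called 1, 0 and 0 in these comparisons. Over the 3 comparisons and both copies, the 95% intervals of the difference ran from -0.15 at the lowest to 0.17 at the highest, so differences between drug groups of that size remain possible. With quantile normalization DEX minus CAF was -0.10 (limma adjusted p = 0.478) in Mir29b1 and -0.15 (limma adjusted p = 0.189) in Mir29b-3, and CAF+DEX minus DEX was 0.13 and 0.16 (limma adjusted p = 0.507 for both). The shares of features called were 0.341% for DEX against CAF, 0% for CAF+DEX against CAF and 0% for CAF+DEX against DEX. All libraries of the first group lay above all of the second in 10.2% of features for DEX against CAF, 3.41% for CAF+DEX against CAF and 4.78% for CAF+DEX against DEX, and in 0 of 2 miR-29b copies each time. The summed level gave a 2.22% higher mean in CAF+DEX than in CAF and a 3.44% higher mean than in DEX. On the log2 scale the sum differed by 0.03 between CAF+DEX and CAF, and by 0.01 without CAF+DEX library 5 and 0.06 without CAF+DEX library 1. Between CAF+DEX and DEX it differed by 0.05, and by 0.03 without CAF+DEX library 5 or DEX library 1. Exact two-sided permutation tests on the log2 sum gave p = 0.4 for DEX against CAF, p = 0.4 for CAF+DEX against CAF and p = 0.2 for CAF+DEX against DEX, with an adjusted p of 0.4 for each over the 3 pairs. With 3 libraries against 3 the smallest p possible is 0.1.

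**Figure D2:**
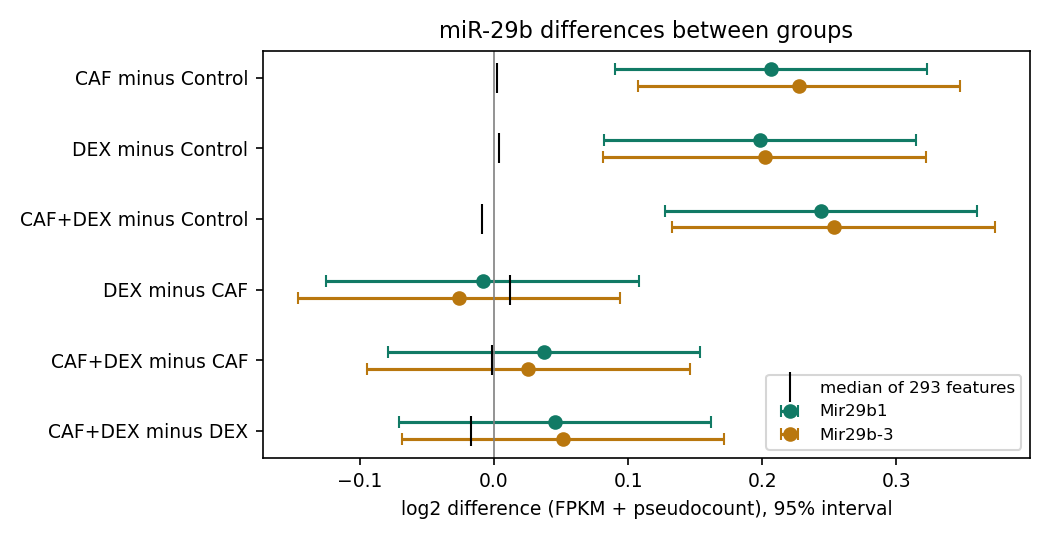
Log2 differences (horizontal axis) with 95% intervals for Mir29b1 and Mir29b-3 in the 6 comparisons between groups, from a limma model of all 12 libraries; black ticks are the median of the 293 features tested. Both copies sit between 0.20 and 0.25 against Control, and the intervals between drug groups include 0.

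The interaction, CAF+DEX minus CAF minus DEX plus Control, was -0.16 (SE 0.08) in Mir29b1 and -0.18 (SE 0.08) in Mir29b-3, and with quantile normalization it was -0.08 and -0.07. It is the amount by which both drugs together fell short of the sum of the single-drug differences. It is built from the comparisons that picked the family and is given without a test. The mean summed level with both drugs was 2726 RPM, beside 2667 with caffeine and 2636 with dextromethorphan alone.

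Libraries of a group gave closely similar miR-29b levels. The SD between libraries of a group was 0.04 on the log2 scale for Mir29b1, and 0 of the 293 tested features had a lower one. Mir29b-3 had an SD of 0.04 as well, with 4 features lower, Mir29b1 among them. The median SD of the 135 features averaging at least 100 reads was 0.11. The limma model, which draws each feature's spread towards that of features of like level, used an SD of 0.07 for both copies. A comparison of 2 groups with the copies' own spread would have an SE of 0.03 for Mir29b1 in place of 0.05. A low spread is part of what gives a low p, so it is a description of how these rows came to be picked.

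Every one of the 9 drug libraries lay above every Control library in 3 of the 293 features (1.02%). Apart from the 2 miR-29b copies, the remaining feature was Mir20a, a microRNA of a growth-linked cluster, named after its values were seen. Mir20a stood at 12526 ± 745 FPKM (SD, n = 3) in Control, 13582 ± 243 in CAF, 14699 ± 1333 in DEX and 14645 ± 1154 in CAF+DEX. Its highest Control library had 13241 FPKM and its lowest drug library, CAF library 1, had 13389, a narrower gap than that of miR-29b. In the opposite direction, with every drug library below every Control library, there was 1 feature, Mir494, at a mean of 1.75 reads.

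**Figure D3:**
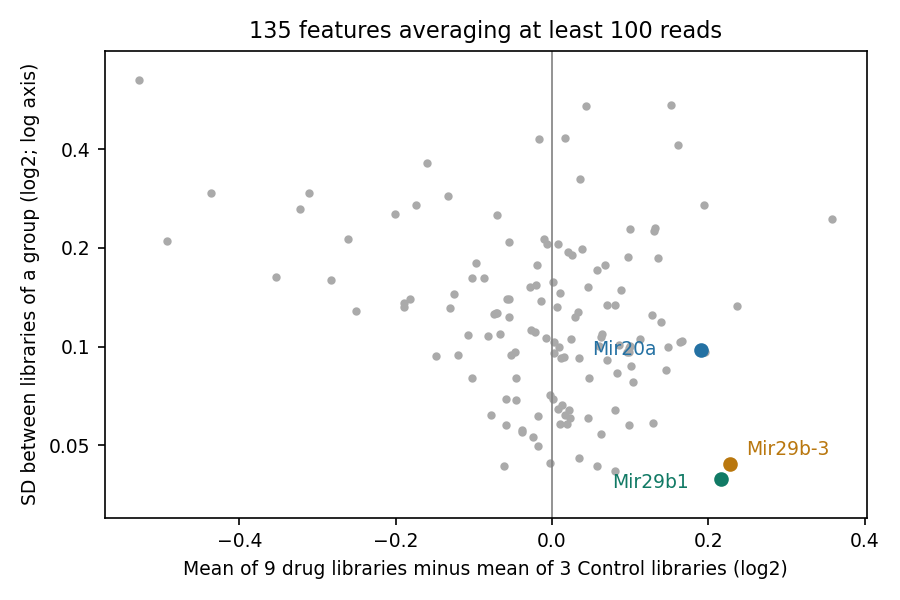
Mean of the 9 drug libraries minus mean of the 3 Control libraries (horizontal axis, log2) against the SD between libraries of a group (vertical axis, log2 units on a log axis) for the 135 features averaging at least 100 reads. The miR-29b copies sit at 0.22 and 0.23 with SDs of 0.04, at the lower edge of the cloud, and Mir20a sits at 0.19.

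The 2 copies rose and fell together, with Pearson's r = 0.997 over the 12 libraries, which is a description of rows that share most of their reads. Mir29b1 had the higher FPKM and Mir29b-3 the higher read count, since FPKM divides by the length of the row. Mir29b-3 exceeded Mir29b1 by 159, 187.5 and 186.5 reads in Control libraries 1, 3 and 4, and by 233, 216 and 295.8 reads in CAF libraries 1, 2 and 5. The excess was 178.55, 218.5 and 235 reads in DEX libraries 1, 2 and 4, and 207.5, 250 and 265.84 reads in CAF+DEX libraries 1, 2 and 5. A read given in equal parts to both copies adds nothing to this excess, so it counts reads assigned unequally.

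In RPM, the excess was 54.8 ± 5.27 (SD, n = 3) in Control, 83.1 ± 14.6 in CAF, 66.0 ± 4.76 in DEX and 74.0 ± 7.03 in CAF+DEX. Each drug library exceeded each Control library, though DEX library 1 at 60.7 RPM stood barely above Control library 4 at 60.1, and CAF library 5 was the highest at 98.5 RPM. The excess was 1.52 times Control in CAF, 1.20 times in DEX and 1.35 times in CAF+DEX, beside 1.16, 1.15 and 1.19 times for the summed level.

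As a ratio, Mir29b-3 had 1.049 times the reads of Mir29b1 in Control (SD 0.003), 1.064 in CAF (SD 0.011), 1.051 in DEX (SD 0.003) and 1.056 in CAF+DEX (SD 0.004). In this ratio the CAF libraries, at 1.064, 1.054 and 1.075, all lay above the highest Control library at 1.052, while DEX and CAF+DEX overlapped Control. CAF library 2, at 1.054, lay within the ranges of both DEX and CAF+DEX. Between drug groups, exact two-sided permutation tests of the excess gave p = 0.2 for DEX against CAF, p = 0.4 for CAF+DEX against CAF and p = 0.3 for CAF+DEX against DEX. The adjusted p was 0.4 for each over the 3 pairs.

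**Figure D4:**
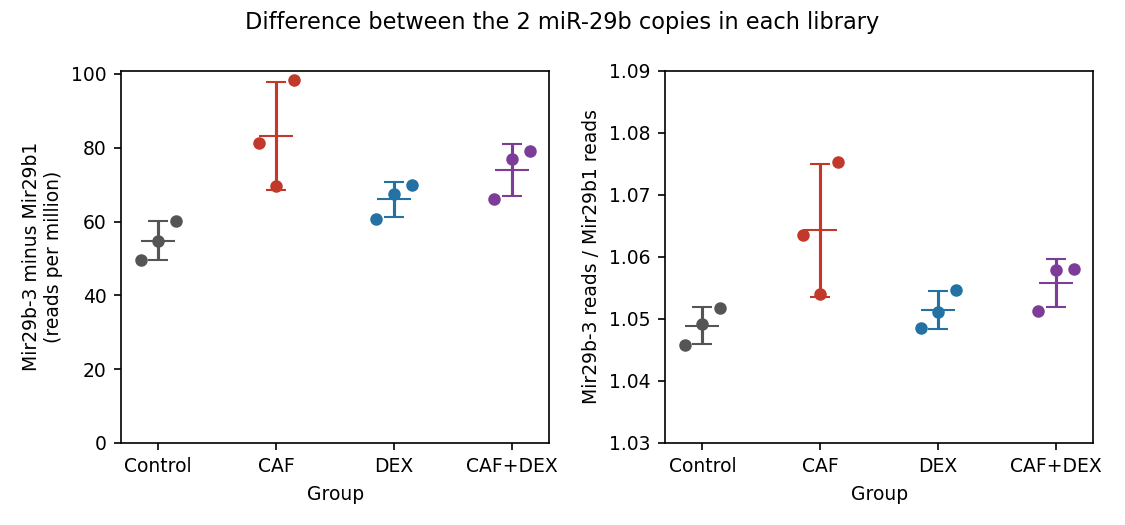
Mir29b-3 minus Mir29b1 in RPM (left, axis from 0) and their ratio (right, axis not from 0) in each library, with group means and SDs as bars. The excess runs from 49.6 to 60.1 in Control, and CAF libraries reach 98.5.

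Features like miR-29b were sought among the other features averaging at least 100 reads, by Pearson's r of log2 levels with the log2 summed miR-29b level over the 12 libraries. The 5 with the highest r were Mirlet7g (0.70), Mir802 (0.68), Mirlet7d (0.65), Mir19b1 (0.63) and Mir19b2 (0.63), of which the last 2 are copies with 1 mature form. The values share libraries and depth, and r is a description. With deviations from group means only, r was 0.50 for Mir802, 0.33 for Mirlet7g, 0.18 for Mirlet7d and 0.06 for both Mir19b copies, so r was lower within groups for each of the 5.

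Mir802, a microRNA abundant in liver that is linked to glucose handling, kept an r of 0.67 over the 9 drug libraries. Mir802 stood at 80488 ± 5605 FPKM (SD, n = 3) in Control, 103020 ± 6348 in CAF, 84404 ± 2354 in DEX and 98487 ± 15168 in CAF+DEX, so its DEX mean lay 0.07 (SE 0.10) above Control on the log2 scale beside 0.20 for miR-29b. Mirlet7g, of the let-7 family that restrains growth, had log2 differences from Control of 0.07 (SE 0.06) in CAF, 0.10 (SE 0.06) in DEX and 0.12 (SE 0.06) in CAF+DEX. None of the 5 passed limma's adjusted p in any comparison.

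The 3 features with the lowest r were Mir16 (-0.62), rno-mir-486 (-0.58), a red cell microRNA, and Mir190b (-0.58). Mir16, which restrains the cell cycle, stood at 450435 ± 20008 FPKM in Control, 402108 ± 17931 in CAF, 447800 ± 28353 in DEX and 397090 ± 38462 in CAF+DEX. Its means were lower in the groups given caffeine than in Control or DEX, but no difference passed limma's adjusted p (0.361 in CAF and 0.404 in CAF+DEX, against Control), and CAF+DEX library 1 lay within the Control range. Its r over the 9 drug libraries was -0.74. Mir190b, which was lower than Control in each drug mean, had an r of 0.62 over the 9 drug libraries, so its opposite course to miR-29b lay between Control and the drugs.

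**Figure D5:**
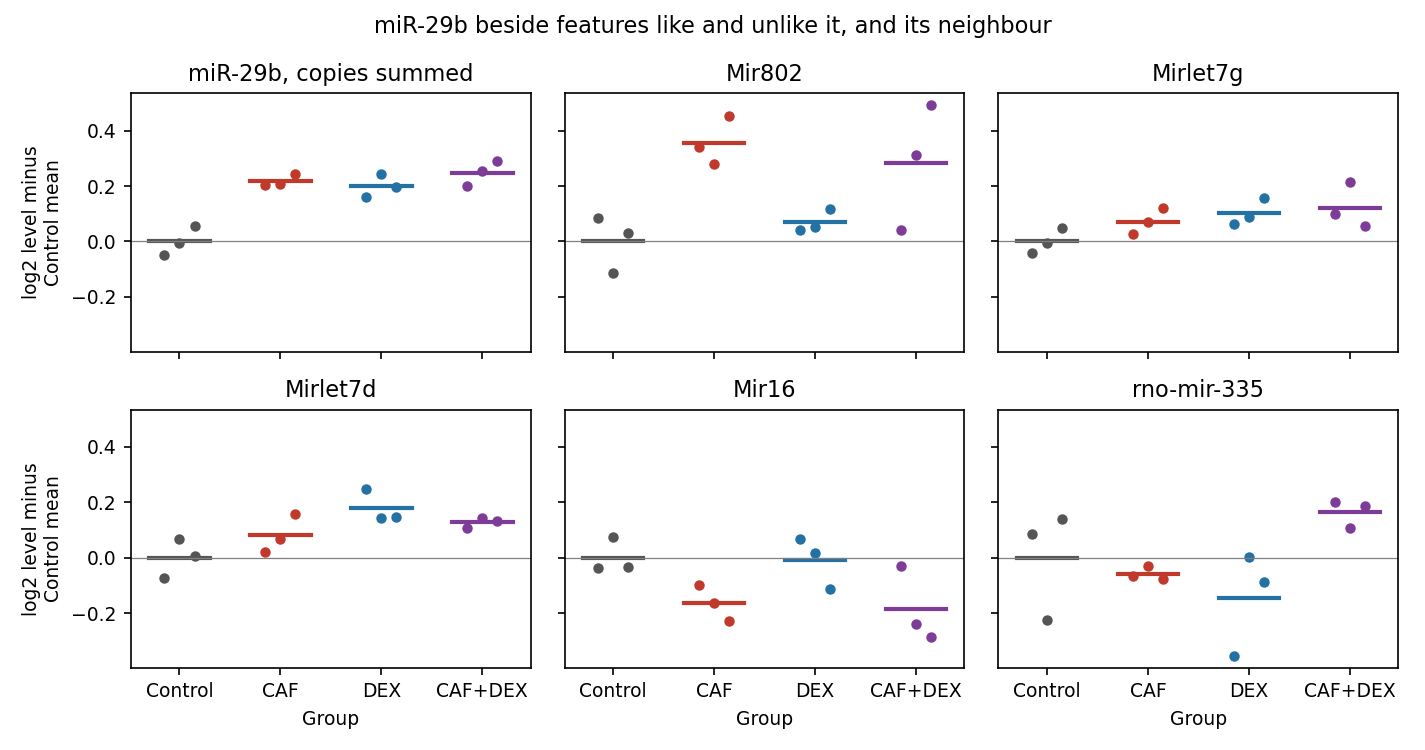
Log2 level minus the Control mean (vertical axis) in each library by group for summed miR-29b, Mir802, Mirlet7g, Mirlet7d, Mir16 and rno-mir-335; lines are group means. The drug group means of miR-29b sit between 0.20 and 0.25; those of Mir802 are 0.36, 0.07 and 0.28 and those of rno-mir-335 are -0.06, -0.15 and 0.17 in CAF, DEX and CAF+DEX, and none of these of Mir802 or rno-mir-335 passed limma's adjusted p.

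The features within 1 Mb of the copies were examined next, and none of the 4 that could be tested passed against Control. On rn7 chromosome 4, rno-mir-335, a microRNA hosted by the imprinted gene Mest, lies 293.1 kb away at 59357769 to 59357866. It stood at 78777 ± 10293 FPKM (SD, n = 3) in Control, 75243 ± 1231 in CAF, 71101 ± 8891 in DEX and 87800 ± 2991 in CAF+DEX. Its log2 differences from Control were -0.06 (SE 0.10), -0.15 (SE 0.10) and 0.17 (SE 0.10), and none passed limma's adjusted p.

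Mir182, Mir96 and Mir3553, at 862.3 to 866.1 kb from Mir29b1, belong to a cluster of sensory and epithelial microRNAs. Mir182 stood at 5640 ± 1888 FPKM in Control, 5951 ± 1140 in CAF, 5118 ± 686 in DEX and 5810 ± 2551 in CAF+DEX, groups that overlapped throughout.

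Mir3556a lies 272 bases from Mir29b1 on the opposite strand, and Mir3556b lies 434 bases from Mir29b-3, also on the opposite strand. In RefSeq the mature miR-3556a and miR-3556b lie antisense over the Mir29a and Mir29c hairpins, and each is the reverse complement of part of the respective 3p strand. Mir3556a was above 0 in 1 library only, Control library 1, with 0.33 read, and Mir3556b had 0 reads in all 12 libraries. A count of 0 allows up to 3 reads, or 0.878 to 1.05 RPM depending on the library. The sources used here do not give whether the authors counted by strand.

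Other microRNAs reported to act on matrix genes were taken from a pair of lists. Of the list of microRNAs that restrain stellate cell activation, 14 of 15 rows could be tested, and Mir193a was at 0 in every library. In CAF, 0 passed as higher and 1 as lower (Mir146a, an inflammation-limiting microRNA) beside 0.683% of all features, a call lost under the settings named for the leukocyte rows, with a median log2 difference of -0.02 beside 0.00 for all features. In DEX 0 passed and the median was -0.01 beside 0.00, and in CAF+DEX 0 passed and the median was 0.08 beside -0.01. Mir146a also passed as higher in DEX than in CAF, the only feature that limma called between drug groups, and 0 were called there without CAF library 2, CAF library 5, DEX library 1 or DEX library 2. With quantile normalization limma called 1 feature in CAF+DEX against DEX.

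The 4 most abundant rows of this list were Mir148a, Mir16, Mir101a and Mir30a, and none passed. Mir30a, a microRNA of hepatocytes, stood at 316669 ± 17065 FPKM in Control, 344479 ± 24998 in CAF, 330029 ± 17985 in DEX and 332389 ± 15062 in CAF+DEX. Mir101a, abundant in hepatocytes, had log2 differences of 0.02, -0.05 and 0.04 from Control (SE 0.06 each), and Mir148a, a regulator of nuclear receptor transcripts, had -0.09, -0.03 and -0.08 (SE 0.08 each).

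Of the list of microRNAs that promote stellate cell activation, all 11 rows were tested and 0 passed in either direction in any of the 6 comparisons. Medians against Control were 0.00 in CAF, -0.02 in DEX and -0.01 in CAF+DEX. Mir21, which is raised in fibrotic tissue, had 0.04, 0.01 and -0.05 (SE 0.11 each). Mir199a2, a product of stellate cells, stood at 21942 ± 4170 FPKM in Control, 25088 ± 871 in CAF, 22327 ± 3502 in DEX and 24520 ± 5075 in CAF+DEX. Mir27b, involved in lipid handling, had 0.08, -0.13 and -0.01 (SE 0.06 each), and Mir27a had 0.00, -0.01 and 0.05 (SE 0.11 each).

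By the annotation in the deposited table, a list looked up after the table was seen, the remaining row under negative regulation of collagen biosynthetic process was Mir218-2, a microRNA processed from a Slit gene. Mir218-2 stood at 1140 ± 54.7 FPKM in Control, 1068 ± 48.2 in CAF, 921 ± 234 in DEX and 1251 ± 26.4 in CAF+DEX, and its log2 differences from Control were -0.09, -0.33 and 0.14 (SE 0.14 each). It was highest in CAF+DEX, as miR-29b was, but its means were below Control in CAF and DEX, where miR-29b was above. None passed limma's adjusted p. A further 6 tested rows shared the term for restraint of transforming growth factor beta receptor signalling, the pathway that switches on collagen genes. These were Mir17, Mir18a, Mir20a, Mir342, Mirlet7f2 and Mirlet7g. Their medians against Control were 0.09 in CAF, 0.09 in DEX and 0.08 in CAF+DEX, beside 0.00, 0.00 and -0.01 for all features. Of the 6, 5 were higher than Control in CAF, 4 in DEX and 4 in CAF+DEX. None was called, beside 0.683%, 0% and 0% of all features. Mir20a, named above after its values were seen, is one of the 6.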

How the data were processed

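MicroRNA libraries came from a QIAseq kit with unique molecular indices (labels' protocols); the sources used here do not say whether the indices were collapsed. The submitters' processing notes name cutadapt 3.7, STAR 2.7.11b, featureCounts of Subread 2.0.6 and build rn7. The authors deposited FPKM; FPKM times length in kilobases summed to 1000000 in every library. Reads were recovered as the smallest library total giving all values as multiples of 0.01 read within 2e-05 read, so the authors' counting shared some reads between features; 50.5 to 58.3% of features above 0 had whole reads (within 0.001).

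Column headers give the group and a library number (1 to 5), used as a name. The 293 features above 0 in at least 3 of 12 libraries were fitted as log2(FPKM + 3.80), the 10th percentile of values above 0, with the trended limma fit (version 3.58.1 under R 4.3.3), 4 group means in 1 model, and Benjamini-Hochberg adjustment over all 293. Fold changes on this scale understate those of rare features. The fit was also run on simulated data with planted changes larger than those of miR-29b, so that run says nothing about differences of the miR-29b size. Permutation tests, Wilson intervals and correlations used SciPy 1.17.1 and NumPy 2.4.6, and hairpins were aligned with Biopython 1.88. Alternatives were another pseudocount, filter, scaling, test, merged copies, fits of only the groups compared, a library number block and leaving out each library. Named features were the miR-29 rows, all features within 1 Mb of them, the 5 most and 3 least correlated with miR-29b, and the 4 most abundant of each matrix list. The members and lists were chosen with earlier results of these data known.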

Additional observations from a re-analysis of the deposited data

How the results depend on the processing

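Both miR-29b copies and their sum were higher than Control in each drug group under every alternative run. The family was picked on these comparisons, and nothing is read from this. Since every drug library lay above every Control library, leaving out 1 library could not reverse the direction. Quantile normalization moved DEX minus Control to 0.0997 for Mir29b1 and 0.0824 for Mir29b-3 and the interaction to -0.0755 and -0.0749, and was the 1 alternative in which a copy was called, Mir29b-3 in CAF minus Control at 0.23. Leaving out 1 library gave 0.18 to 0.23 (Mir29b1), 0.20 to 0.26 (Mir29b-3) and 0.19 to 0.24 (sum) in CAF minus Control, 0.17 to 0.22, 0.18 to 0.23 and 0.18 to 0.23 in DEX minus Control, and 0.22 to 0.27, 0.23 to 0.28 and 0.22 to 0.28 in CAF+DEX minus Control. DEX minus CAF, not called for miR-29b in any alternative, ran on leaving out 1 library from -0.0293 to 0.0105 for Mir29b1 and from -0.0382 to 0.0025 for the sum; it was above 0 without DEX library 1 (both) and, at 0.0004, without CAF library 5 (Mir29b1).

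Features called over all rows in CAF minus Control (2) became 0 with no filter, 0 in a fit of only the groups compared, 4 with quantile normalization and 0 to 10 when 1 library was left out. DEX minus CAF (1) became 0 to 4 when 1 library was left out. With quantile normalization 1 was called in CAF+DEX minus Control and 1 in CAF+DEX minus DEX. Leaving out 1 library gave 0 to 1 call in DEX minus Control, in CAF+DEX minus DEX and in the interaction. With the library number as a replicate block, calls were 0 in CAF minus Control, 1 in DEX minus Control and 0 in DEX minus CAF, and no miR-29b copy was called; Mir29b1 in CAF minus Control was 0.19. Same-numbered libraries of different groups had correlations of -0.33 to 0.45 (median 0.08, 11 pairs), and others -0.47 to 0.67 (median -0.02, 43 pairs). With 3 libraries a group these overlapping ranges cannot show whether same-numbered libraries share more than a number. Beyond fewer or more features or libraries in a fit, the cause was not tested. The counting half-width of the summed level was 2.02 to 2.32% in a library, and each group had 3 libraries.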
